A study of Mus musculus with 5 samples.

Results

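Interferon-induced effector genes are the proteins that carry out the antiviral programme of a cell, and their level in cells without a stimulus is used as a read-out of the interferon signal received at rest. Here 8 such genes were followed: Isg15, Mx1, Ifit1, Ifit2, Ifit3, Ifi204, Usp18 and Ifi47. They were chosen by platform gene symbol from 8251 named genes, and all 8 had a probe set on the array. Together they had 10 probe sets, since Ifi204 had 3 and the other members 1 each. The study measured total RNA of 5 mouse samples on 1-colour arrays, with 1 array per sample. The cells of every sample, numbered 1 to 5 by the labels, were dendritic cell progenitors of bone marrow, positive for FLT3 and CD11b. The labels name no stimulus, strain, age, animal or pool, so the samples formed 1 group, no condition could be compared, and the spread between samples may be technical.

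Type I interferons bind a receptor of the IFNAR1 and IFNAR2 chains, which activates the kinases JAK1 and TYK2 and then a transcription factor complex that holds IRF9. That complex binds interferon-stimulated response elements in promoters, while interferon gamma, through its own receptor, acts on gamma-activated sites. Haematopoietic cells are known to receive a weak constitutive interferon signal, which keeps a low level of such transcripts without infection.

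The promoters show which members carry the letters of the response element. Promoter windows from RefSeq (build GRCm38.p6), running from 250 bases before to 50 bases after a gene start, were on hand for 5 of the 8 members (6 windows), namely Isg15, Ifit1, Ifit2, Ifit3 and Ifi47. Both strands were searched for the core of the response element, which is GAAA, then any 2 bases, then GAAA, and reads TTTC, 2 bases, TTTC on the opposite strand. The letters occurred in 3 members, Isg15, Ifit1 and Ifit3, and in 1131 of 32851 promoter windows of all genes (3.44%). The 200 bases before the gene start follow, 5′ to 3′ along each gene, with the matches in capitals. The first 3 are the members with a match, the fourth is Ifi47, a member without these letters in its window, and the last is Irgm2, an interferon-induced GTPase gene with a match whose signal was above the array median in every sample. Isg15 lies at chr4:156200819-156201018 on the minus strand. The other windows are on the plus strand, Ifit1 at chr19:34640689-34640888, Ifit3 at chr19:34583329-34583528, Ifi47 at chr11:49076387-49076586 and Irgm2 at chr11:58214777-58214976.
Isg15: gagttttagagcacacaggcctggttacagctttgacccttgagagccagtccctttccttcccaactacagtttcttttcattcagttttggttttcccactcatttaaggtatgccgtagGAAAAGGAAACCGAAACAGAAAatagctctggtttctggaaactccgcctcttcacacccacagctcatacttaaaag
Ifit1: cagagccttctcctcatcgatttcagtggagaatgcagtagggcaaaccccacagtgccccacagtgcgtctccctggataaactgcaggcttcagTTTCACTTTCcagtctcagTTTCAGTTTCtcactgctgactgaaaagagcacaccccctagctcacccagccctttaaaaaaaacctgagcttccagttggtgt
Ifit3: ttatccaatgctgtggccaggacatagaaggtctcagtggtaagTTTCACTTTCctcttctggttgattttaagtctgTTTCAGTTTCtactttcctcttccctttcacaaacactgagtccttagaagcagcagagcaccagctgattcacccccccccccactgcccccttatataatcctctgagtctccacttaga
Ifi47: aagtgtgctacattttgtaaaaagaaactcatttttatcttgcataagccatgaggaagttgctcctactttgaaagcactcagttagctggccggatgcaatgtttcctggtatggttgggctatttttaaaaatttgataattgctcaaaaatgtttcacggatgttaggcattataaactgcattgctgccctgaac
Irgm2: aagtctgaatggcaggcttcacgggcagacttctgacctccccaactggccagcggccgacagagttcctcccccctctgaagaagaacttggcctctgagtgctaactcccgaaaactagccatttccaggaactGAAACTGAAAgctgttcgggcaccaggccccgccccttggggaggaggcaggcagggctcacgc

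In Isg15 there were 3 overlapping matches, which began 78, 72 and 66 bases before the gene start. Ifit1 had 2 matches in the reverse orientation, beginning 104 and 85 bases before the start. Ifit3 likewise had 2 reversed matches, at 156 and 122 bases, and the letters of both are those of the matches in Ifit1. Ifit1, Ifit2 and Ifit3 all lie on chromosome 19, and Ifit2 and Ifit3 are neighbouring protein-coding genes. The letters TTCNNNGAA, the core of a gamma-activated site, were present in 1 member window, 1 of the 2 windows of Ifit2, and in 8.30% of all windows; no such match overlapped a response element in the windows printed above. A match is a description of letters, not of a bound site.

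**Figure D1:**
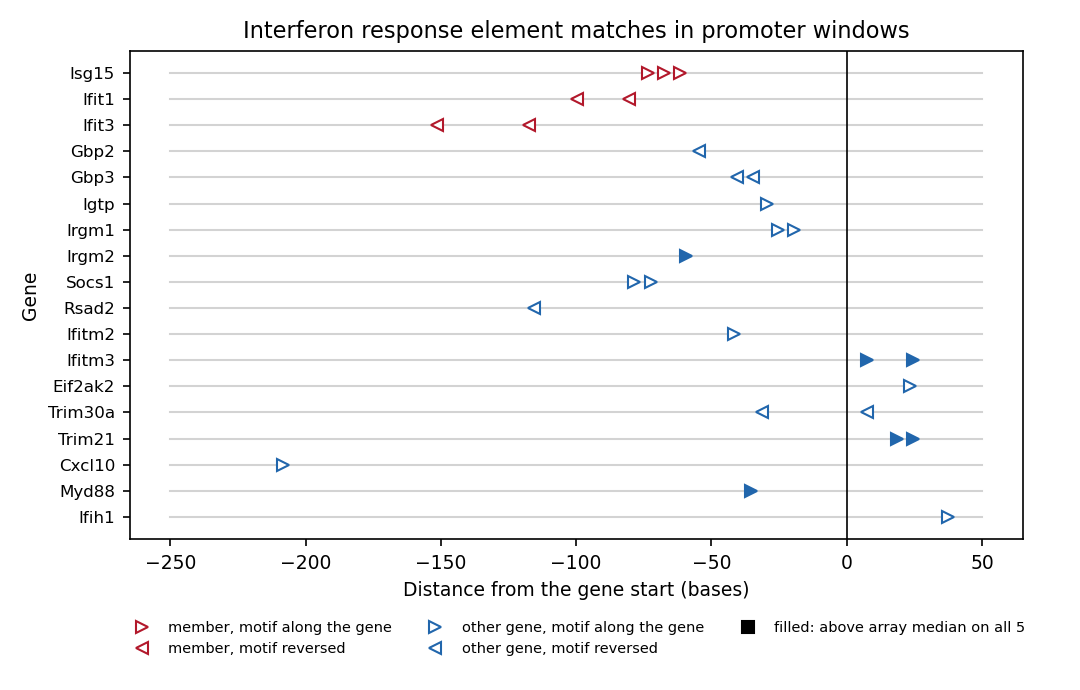
Positions of response element matches (x axis, bases from the gene start) in the promoter windows of members and of other measured interferon pathway genes other than the interferons themselves (y axis); filled symbols mark genes whose signal was above the array median on all 5 arrays, and both windows of Trim30a share a line. The 3 members with matches have them upstream of the start and open symbols, while Irgm2, Ifitm3, Trim21 and Myd88 have filled ones.

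Signals are array intensities scaled so that every array has a median of 103.4, and a gene counts as above the limit when its probe set exceeds that median on all 5 arrays. Being above or below it says where a probe set ranks on its array, not whether the RNA is there. Of the 8 members, 1 was above the limit on all 5 arrays, against a background of 44.5% of all named genes. The median was exceeded on 2 arrays by 2 members, on 1 array by 1 member and on no array by 4 members; of all named genes, 26.7% exceeded it on no array. Counted over members and arrays, 10 of 40 values (25%) lay above the median, against 58.0% over all named genes. The 2 genes behind the cells' surface markers were above the limit, Flt3 at 745 ± 463 and Itgam, which encodes CD11b, at 477 ± 215 (mean ± SD, n = 5, as for all values below).

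Ifi204, a DNA-binding protein of the p200 family that is studied in monocyte differentiation and in DNA sensing, was the member above the limit. Its probe set 98465_f_at had signals of 148, 426, 472, 467 and 266 in samples 1 to 5, with a mean of 356 ± 143. Samples 2, 3 and 4 lay close together at the top and sample 1 was the lowest. The signal ranked between the 58.2nd and the 82.5th percentile of its array. The other 2 probe sets annotated to Ifi204 gave another picture. The first, 161180_r_at, had 20.2, 13.2, 66.8, 59.1 and 115 in samples 1 to 5, and the second, 98466_r_at, had 2.64, 107, 98.6, 62.2 and 6.62. Each exceeded the array median on 1 array only. Ifi204 lies on chromosome 1 among similar family members, with Ifi207, Ifi208, Mndal and Ifi211 as its nearest neighbours, so the share of the signal that comes from Ifi204 itself is uncertain. A further probe set, annotated to 4 of these genes at once, was left out.

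Isg15 encodes a ubiquitin-like protein that is attached to other proteins during an antiviral response. Its signals were 79.9, 69.7, 137, 139.8 and 89.99 in samples 1 to 5, with a mean of 103 ± 32.8. Samples 3 and 4 were above the array median and the other samples below it. The rank within the array ran from the 41.6th to the 57.2nd percentile, which places the gene near the middle in every sample.

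Usp18 encodes the protease that removes ISG15 from proteins and also dampens the receptor by binding IFNAR2. Its signals were 19.99, 5.26, 58.9, 8.86 and 78.4, with a mean of 34.3 ± 32.6. No array had it above the median, and samples 3 and 5 were higher than the rest.

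Mx1 encodes a dynamin-like GTPase that blocks influenza virus; many laboratory mouse strains carry a defective allele, and the labels name no strain. Its signals were 14.98, 61.5, 62.1, 71.4 and 51.8, with a mean of 52.3 ± 22.01. It was below the median in all 5 samples, and sample 1 was the lowest by a wide margin.

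Ifi47 encodes an immunity-related GTPase that acts on vacuoles of intracellular pathogens. Its signals were 40.6, 85.5, 166, 145 and 56.9, with a mean of 98.9 ± 54.9. As for Isg15, samples 3 and 4 were above the median and samples 1, 2 and 5 below it, and the highest signal was 4.10 times the lowest. Its rank ran from the 27.7th to the 61.7th percentile of the array.

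The Ifit genes encode proteins with tetratricopeptide repeats that bind foreign RNA and limit its translation. Ifit1 had signals of 21.3, 9.82, 4.44, 46.0 and 24.2, a mean of 21.2 ± 16.1. Ifit3 had 26.1, 9.10, 9.55, 18.4 and 29.7, a mean of 18.6 ± 9.36. Both stayed below the median on every array. Before log2 was taken, a floor of 30.04, the 25th percentile of the scaled values, replaced lower ones; Ifit3 lay under this floor in all 5 samples and Ifit1 in 4, so their order across samples carries no information. Ifit2 had 96.0, 44.5, 154, 27.99 and 17.7, a mean of 68.0 ± 56.6, with sample 3 alone above the median. Ifit3b, a close copy of Ifit3, lies close to Ifit1, so the gene behind the signal of the Ifit3 probe set is uncertain.

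**Figure D2:**
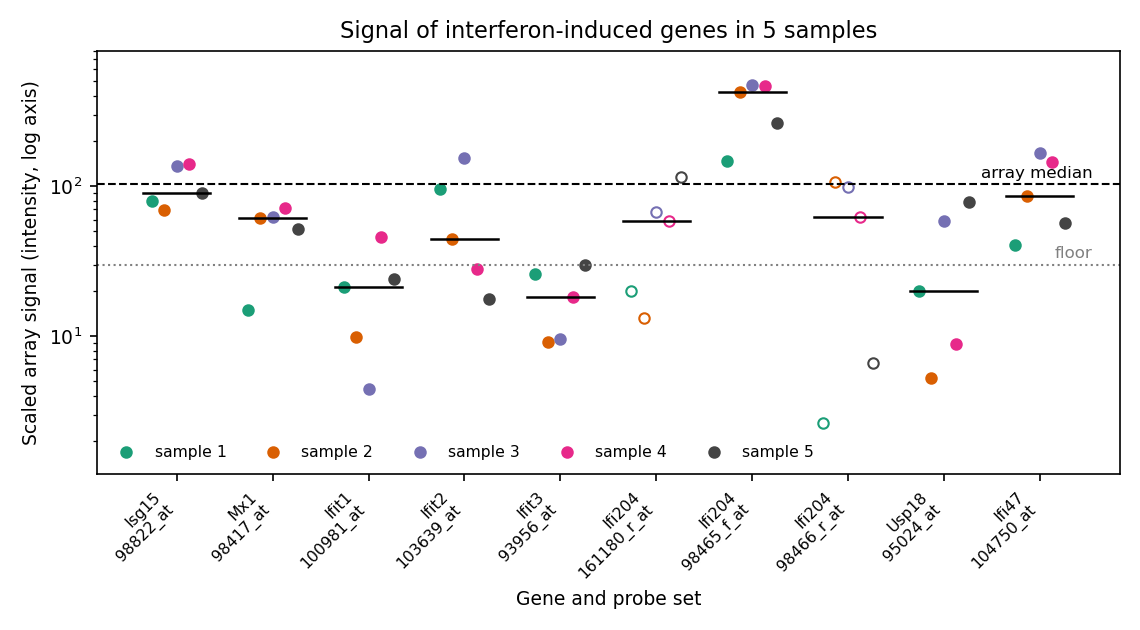
Scaled array signal (intensity, log axis) of each probe set of the 8 members in samples 1 to 5; filled points mark the probe set that stands for the gene, black bars the median of 5 samples, the dashed line the array median of 103.4 and the dotted line the floor of 30.04. Probe set 98465_f_at of Ifi204 is above the dashed line in all samples, and Ifit1, Ifit3, Usp18 and Mx1 are below it in all samples.

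Control probe sets gave a further scale for low signal. The array carries 15 control probe sets against Bacillus genes, whose highest signal per array ran from 56.5 to 167 and whose median ran from 8.96 to 22.6. Ifi204 exceeded the highest of these on all 5 arrays, which 40.8% of named genes did; Isg15 and Ifi47 did on 3 arrays each, and Ifit1, Ifit3 and Usp18 on none. Set against 29 genes of tissues other than blood, 0 of 8 members exceeded their 90th percentile on all 5 arrays, against 30.8% of all named genes. That percentile ran from 151 to 237 across arrays, and 3 of the 29 genes were themselves above the limit. Ifi204 exceeded it in 4 samples; sample 1, at 148 against 237, was the exception, and without sample 1 the count was 1.

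Members deviated upward mostly in samples 3 and 4 and downward mostly in sample 1. In sample 3, 6 members were above and 1 below their own 5-sample mean of log2 signal, and the median deviation of the members was 0.48, against -0.03 over all named genes. In sample 4 it was 0.46, with 5 members above and 2 below, against 0.08 over all named genes. In sample 1 it was -0.39, with 6 of 8 members below, against -0.01. Samples 2 and 5, at -0.07 and -0.13, were between them. Ifit3, held at the floor throughout, deviates by 0 in each sample. On at least 1 array, 5 members were at the floor. Mx1, Ifit1 and Usp18, counted as below their mean in sample 1, were at the floor there. Without sample 1, the value was 0.32 in sample 3 and 0.23 in sample 4.

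RNA control transcripts differed between the same samples. The actin control had a ratio of 3′ to 5′ signal of 1.08, 3.0029, 4.15, 5.20 and 2.55 in samples 1 to 5, and the Gapdh control 0.896, 1.06, 4.52, 3.42 and 2.01. Samples 3 and 4 had the 2 highest ratios of both controls and sample 1 the lowest. The highest signal fell on 1 of these 2 arrays in 6 of 8 members, against 40.1% of all named genes, and the lowest fell on sample 1 in 3 of 8, against 19.1%. Ifit1, under the floor in 4 samples, is among the 6. The part of the 3′ to 5′ ratio in the members' differences was not tested.

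**Figure D3:**
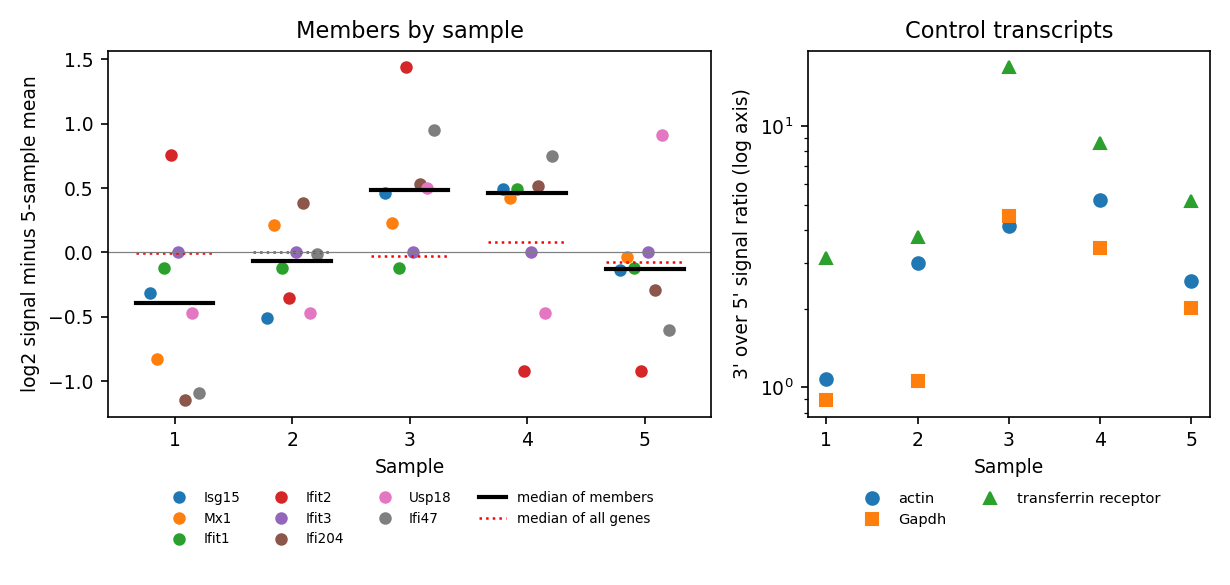
Left, log2 signal minus the 5-sample mean of each of the 8 members (points) in samples 1 to 5, with the median of the members (black bars) and of all named genes (red dotted bars); right, 3′ to 5′ signal ratio (log axis) of the actin, Gapdh and transferrin receptor controls. The black bars are highest in samples 3 and 4, at 0.48 and 0.46, where the actin and Gapdh ratios are highest too.

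Of the members, 1 had a mean log2 signal above the median and so entered the test of variance across samples, which sets each variance against a distribution fitted to all 5814 such probe sets. Ifi204 did not pass it (limma with Benjamini-Hochberg adjustment, adjusted p = 0.943), with an SD of 0.72 on the log2 scale. Over all probe sets limma called 0 of 5814 (0%). An unadjusted p under 0.05 was found for 290, near the share that this threshold gives by chance. A fit that was not robust called 0 and had 294. Such a test finds probe sets that vary more than others and cannot show that samples are alike. The median SD of the 8 members was 0.57 on the log2 scale, against 0.52 over all named genes. The members' value depends on the floor, which 5 members reached on at least 1 array. With the floor at the 10th percentile it was 0.84, and the value over all named genes was not run there.

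The nearest genes to Ifi204 by pattern over the 5 samples were sought among non-members with a mean log2 signal above the median. The other members were thus no candidates. Interferon-induced genes of the lists were few among the candidates, so their absence from the nearest genes carries no information. By the root mean square difference of log2 deviations from the 5-sample mean, the nearest of 4556 genes were Nipbl, a cohesin loader, at 0.056, Tmed7, a cargo receptor of the secretory pathway, at 0.074, and Septin2, a filament-forming GTPase, at 0.080; the median over all 4556 was 0.69. Nipbl had signals of 149.6, 400.4, 424, 441 and 254 in samples 1 to 5, again lowest in sample 1 and highest in samples 3 and 4.

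Upstream of the members lie the interferons, the signals that would induce them. Of 8 measured interferon genes, 0 were above the limit on all 5 arrays, against 44.5% of all named genes. Ifnb1, which encodes interferon beta, had 44.0 ± 10.8 and was below the median in all 5 samples, and Ifna2 had 65.5 ± 36.8 and Ifna4 38.9 ± 24.7. Ifna5 exceeded the median on 4 arrays, with 229, 139, 199, 26.4 and 135; it lies outside the naming rule and was singled out after its values were seen. Most of these probe sets carry the suffix that marks a gene family, and the interferon alpha genes are near-identical, so the gene behind a signal is uncertain. Without sample 4 the count was 1.

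Receptor and signalling genes were above the limit in 5 of 8 cases, against 44.5% of all named genes. Ifnar1 and Ifnar2, the receptor chains for type I interferon, had 134 ± 19.2 and 469 ± 192. Ifngr1, the ligand-binding chain for interferon gamma, had 591 ± 207. The kinase genes Jak1 and Jak2 had 685 ± 124 and 497 ± 207. The other measured genes, Ifngr2, Tyk2 and Irf9, were above the median on 3 arrays each. Ifnar1 varied little, with signals of 162, 128, 145, 116 and 119 in samples 1 to 5.

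Among sensors and factors that induce interferon, 3 of 7 genes were above the limit, against 44.5% of all named genes. They were Irf3, a factor that switches on interferon beta, at 152 ± 24.4, the adaptor gene Myd88 at 414 ± 104, and the kinase gene Tbk1 at 436 ± 66.8. Irf7, the factor that amplifies interferon alpha and is itself interferon-induced, had 112, 23.6, 15.3, 47.4 and 198 in samples 1 to 5, above the median in samples 1 and 5 only. Its highest samples were thus not those of Isg15 or Ifi47, which are among the 6 members highest in sample 3 or 4. Usp18 and Ifit3 were highest in sample 5, as was Irf7, though Ifit3 lay under the floor throughout. In samples 2 and 3 the signal of Irf7 was under the floor as well. Tlr7, a sensor of single-stranded RNA, had 111 ± 26.1. Myd88 carries a response element match in its promoter window, as does Ifih1, which was above the median on 4 arrays.

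Genes that dampen the signal were above the limit in 5 of 8 cases, against 44.5% of all named genes. Ptpn6, the phosphatase SHP-1, had 766 ± 244, Ptpn2, a phosphatase of JAK kinases, 364 ± 152, and the signalling inhibitor gene Pias1 184 ± 47.6. The cytokine-induced inhibitor genes Socs3 and Cish had 305 ± 140 and 350.2 ± 88.4. Socs1, the inhibitor best known for restraining interferon gamma, had 137 ± 75.5, with 209.7, 61.7, 92.4, 93.3 and 226 in samples 1 to 5. It exceeded the median in samples 1 and 5 only.

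Other genes known as induced by type I interferon were above the limit in 6 of 18 cases, against 44.5% of all named genes. Ly6e, a surface protein also common on blood progenitors, had 15687 ± 6318, and Ifitm3, a membrane protein that blocks viral entry, had 1904 ± 531. Trim25, a ubiquitin ligase of RNA sensing, had 498 ± 100.1, Lgals3bp, a secreted glycoprotein, 265 ± 109, Trim21, an antibody receptor in the cytosol, 206 ± 89.9, and Ifi35 157 ± 48.2. The antiviral genes Mx2 and Rsad2 had 50.9 ± 40.01 and 41.0 ± 14.5. Rsad2, whose promoter window holds the response element letters, was below the median in all 5 samples, like Ifit1, Ifit3, Mx1 and Usp18.

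Among GTPases and other genes linked to interferon gamma, 5 of 15 were above the limit, against 44.5% of all named genes. Those were Irf1, at 284 ± 88.6, the immunoproteasome genes Psmb8, at 1020.2 ± 337, and Psmb10, at 458 ± 113, the peptide transporter gene Tap1, at 253 ± 66.0, and Irgm2, at 177 ± 38.0. Gbp2, a guanylate-binding protein, had 47.4 ± 39.2 and no array above the median. Irf8, a factor that dendritic cell and monocyte progenitors require, had 82.6, 368, 350.3, 360.3 and 208 in samples 1 to 5. As in Ifi204, samples 1 and 5 were the lowest, but the highest sample was 2 here and 3 in Ifi204.

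**Figure D4:**
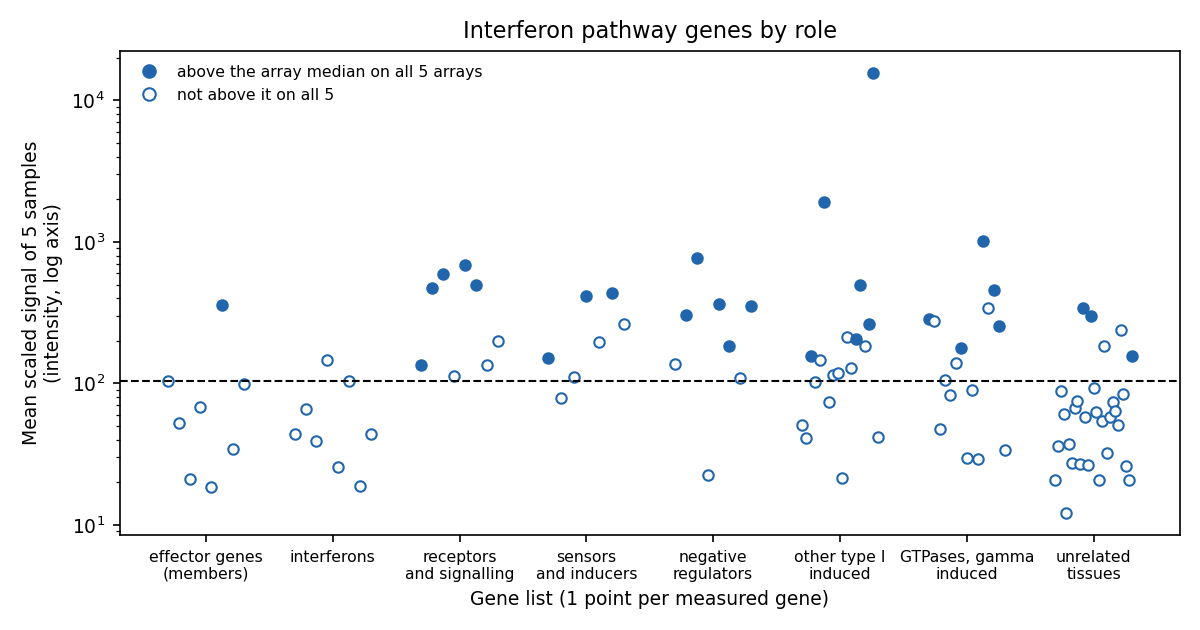
Mean scaled signal over 5 samples (intensity, log axis) of every measured gene of each list, 1 point per gene; filled points are above the array median on all 5 arrays and the dashed line is that median, 103.4. The members have 1 filled point of 8 and the interferons 0 of 8, while receptors and negative regulators have 5 of 8 each. Of all named genes, 44.5% are above the median on all 5 arrays.

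Across the whole array, genes with and without response element letters were counted in the same way. Of named genes with a promoter window and at least 1 match, 111 of 256 (43.4%) were above the limit, against 2915 of 6320 (46.1%) of those without a match. For gamma-activated site letters, 245 of 559 (43.8%) were above it, against 2781 of 6017 (46.2%). Within the lists, a match was present in 7 of 15 other type I induced genes with a window, of which Ifitm3 and Trim21 were above the limit, and in 5 of 12 of the GTPase list, of which Irgm2 was. Of 3 members with a match, 0 were.

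Marker lists for other cells were counted beside the members. Plasmacytoid dendritic cells are known as the main makers of type I interferon. Of their markers 7 of 9 were measured, 0 were above the limit, and their summed signal ran from 548 in sample 4 to 1869 in sample 2. Cox6a2 alone had 1274 in sample 2, against 16.8 to 155 in the other samples, so that sum does not describe the whole list. Macrophage markers had 6 of 10 above the limit, with sums from 2610 to 5329, and lymphoid markers 0 of 10, with sums from 343 to 902. Erythroid markers had 0 of 5, with sums from 189 to 542. Of all named genes, 44.5% were above the limit. Granulocyte markers had 8 of 9 above the limit, with sums of 57830, 168058, 122391, 248824 and 154411 in samples 1 to 5. Sample 4 had the highest sum and sample 1 the lowest, while sample 3, where the members' median deviation was highest, was below samples 2 and 5. Single granulocyte markers differed in part from the sums. All but Elane were highest in sample 4, and Elane was highest in sample 1, at 10647. Ngp, S100a8, S100a9 and Mmp8 were lowest in sample 1, Mpo, Elane, Ltf and Camp in sample 2, and Mmp9 in sample 3. No marker was listed at 0. A part of these cells in the members' signal was not tested, and fewer cells of a type and less RNA per cell cannot be told apart in such samples.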

How the data were processed

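The members and lists were chosen with earlier results of these data known. The authors deposited linear array intensities for 12488 probe sets; their software and scaling are not given in the sources used here. Deposited column medians ran from 66.5 to 392, sample 1 being the highest. With the extreme values trimmed, the deposited mean was 1000.6 in sample 1 and 200.1 in each of samples 2 to 5. Sample 1 was thus deposited on another scale than the rest. Without 66 control probe sets, every array was brought to a median of 103.4 by a single factor, the floor of 30.04 was set and log2 taken. Symbols came from the platform's annotation: 10833 probe sets had 1 symbol, 396 several and 1193 were not listed. Where a gene had several probe sets, the one with the highest mean of log2 signal represented it. Arrays give no counts, so their number, 5, limits the precision.

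Variance was tested with limma 3.58.1 in R 4.3.3 on probe sets whose mean exceeded the median, at an adjusted p of 0.05. The distribution was fitted robustly and with a trend on mean signal. The procedure was tried on simulated data with strongly raised SDs, which does not show how well it finds smaller ones. Samples far from the others were sought with Dixon's test; all else is counts and ranges without a test. Text names all members, Itgam and Flt3, from every pathway list its first 3 measured genes, up to 5 more above the limit, list genes with an outlying sample, and the 3 nearest genes; others were chosen after their values were seen. Alternatives were quantile normalization, the values as deposited, a floor at the 10th percentile, limits at the 40th and 75th percentile, 3 arrays sufficing, the lowest probe set of a gene, no filter, other limits on low signal, and leaving out each sample.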

Additional observations from a re-analysis of the deposited data

Results flagged for a closer look

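Of 72 members and pathway genes, 6 had 1 sample far from the other samples (gap to the nearest sample over the whole range above 0.71, Dixon's 95% value for 5 samples), and 0 of the 8 members did. For normally distributed values, chance gives such a gap in about 1 in 20 genes. The test was run on scaled signals without log2 or floor, so that rate need not hold here. Adar, an RNA-editing enzyme, had 182 in sample 1, and the immunity-related GTPase gene Iigp1 had 68.9 there. The p200 family gene Ifi202b had 76.0 in sample 2. The chemokine gene Cxcl9 had 86.2 in sample 3, and Ifi30, a thiol reductase of antigen processing, had 74.1 there, the lowest of the 5. The membrane protein gene Ifitm2 had 73.7 in sample 4, also its lowest. In Iigp1, Ifi202b and Cxcl9 all other samples lay under the floor of 30.04.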

How the results depend on the processing

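For the median SD of the members and their deviation in each sample, the alternatives were quantile normalization, the lower floor, the lowest probe set and leaving out each sample. Under all of these, both moved by less than 1 SD (over members and over samples). Those SDs, 0.34 and 0.39, are wide against the values themselves, so this is a weak criterion. With the lower floor the median SD went from 0.57 to 0.84 and the deviation in sample 2 from -0.07 to -0.34. Without sample 1 the deviation in sample 4 went from 0.46 to 0.23. The values as deposited were not run for the median SD or the deviations. The sign of the deviation was kept in 32 of 35 values. The exceptions were sample 2 without sample 3 and without sample 4, at 0.0034 and 0, and sample 5 with the lower floor, at 0.012. Limma called 0 members in every setting, with 0 members at an unadjusted p under 0.05, also with no filter, where all 8 entered but Ifit3, at the floor throughout, had no variance to test; with no filter and the lower floor together, chosen after seeing the data, it called 11 of 12422 probe sets and 0 members. The count of members above the limit was 2 with the limit at the 40th percentile, 0 at the 75th, 0 with the lowest probe set of each gene, and 1 with the highest Bacillus control as limit, also chosen after seeing the data. At the 75th percentile the receptor list had 3 genes above, sensors 1, negative regulators 1, other type I induced genes 3, the GTPase list 2, genes with response element letters 64 and those with gamma-activated letters 105. With 3 arrays sufficing, the interferons had 1, receptors 8, sensors 5 and other induced genes 10; sensors also had 5 at the 40th percentile. Members above the unrelated tissues numbered 1 at their 75th percentile, 1 with 3 arrays sufficing, and 0 to 1 when each sample was left out. Leaving out each sample in turn kept the members' count at 1 and gave 0 to 1 interferons. In the values as deposited, where sample 1 has the largest scale, the mean signal of Ifit3 was 29.5 against 18.6 and that of Ifit2 108.2 against 68.0; the other 6 members moved by less than 1 SD and by less than 1.5 times. No paired analysis was possible because all samples form 1 group. Low signal limits what the arrays show of Ifit1, Ifit3 and Usp18, which lay under the floor in at least 3 samples.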
